A study of Mus musculus with 10 samples.

Results

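Antioxidant and glutathione genes were chosen by gene symbol. They comprise the glutathione S-transferases, glutathione peroxidases, peroxiredoxins, thioredoxins and their reductases, glutaredoxins, superoxide dismutases, catalase, the enzymes that make and recycle glutathione, the methionine sulfoxide reductases, sulfiredoxin, Nqo1, Nnt, and the regulator pair Nfe2l2 and Keap1. The rule found 65 of the 20295 genes in the count table, and it reads symbols, not measured values. Polyadenylated RNA was sequenced from brown fat, the tissue that burns fuel for heat, taken between the shoulder blades (the interscapular depot) of male mice of the strain C57BL/6JBomTac at 8 weeks of age. Of the mice, 5 stayed at 22 °C (control) and 5 spent 3 days at 4 °C (cold), all housed singly on chow beforehand, with 1 library per mouse. The tissue was sequenced whole, so fewer cells of a type and less RNA per cell cannot be told apart. The labels also limit the comparison to 1 sex, 1 strain and 1 time point. Every library name carries WT, read here as wild type.

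Respiring mitochondria leak superoxide, which superoxide dismutases turn into hydrogen peroxide. Catalase, glutathione peroxidases and peroxiredoxins then reduce the peroxide, the peroxidases with electrons from glutathione and most peroxiredoxins with electrons from thioredoxin. Glutathione S-transferases attach glutathione to reactive lipid products and foreign compounds, and several of them also reduce organic peroxides. Brown fat is rich in mitochondria and oxidises large amounts of fatty acids in the cold, and superoxide and lipid peroxidation products can activate its uncoupling protein. Many of these genes are known targets of the transcription factor NRF2 (encoded by Nfe2l2), which KEAP1 holds in the cytosol and marks for degradation until electrophiles modify it.

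Library totals lay between 4446163 and 5776905 counts in the control group and between 5676963 and 6923932 in the cold group. Values are normalised read counts in CPM (counts scaled to a common library total), after TMM scaling, listed in the order of replicates 1 to 5, and a mean is given ± SD over the 5 libraries of a group. Gene positions refer to mm9, a mouse genome build. Changes are log2 fold changes of cold over control from edgeR's quasi-likelihood test, with standard error (SE) and Benjamini-Hochberg adjusted p over all 11229 genes tested. All 10 brown adipocyte markers were present, their sum lay at 26417 to 29535 CPM in control and 35333 to 40458 CPM in cold libraries, and Ucp1, the uncoupling protein, was at 9123 CPM at 22 °C and 18532 CPM at 4 °C on average. Of the 10, Ucp1 and Cox7a1 rose (1.02 and 0.34 on the log2 scale) and Adipoq and Cox8b fell (-0.72 and -0.34). Summed markers of other cell types overlapped between the groups, with 11 macrophage markers at 115 to 186 CPM in control and 78.7 to 236 CPM in cold libraries and 9 fibroblast markers at 418 to 633 and 279.8 to 937 CPM. Of these, 1 macrophage marker rose and 1 fell, and 1 fibroblast marker rose. Endothelial markers summed to 731 to 1095 CPM in control and 879 to 1055 CPM in cold libraries, and 2 of 9 rose (Emcn and Kdr). The erythroid sums were 8.60 to 19.03 and 15.4 to 47.7 CPM, with Alas2 higher and 1 marker at 0, and the Schwann cell sums were 125 to 183 and 84.7 to 233 CPM, with Pmp22 at the lowest adjusted p (0.219) of 6 tested. The 12 skeletal muscle markers together reached 423 CPM in cold replicate 2 and 304 CPM in cold replicate 3, against 8.04 to 13.8 CPM in the other 3 cold libraries and 6.66 to 105 CPM in the controls. All 6 neutrophil markers in the table together gave 0.374 to 2.22 CPM per library. The part of these other cells in the results was not tested. Control replicate 2 and cold replicate 5 stood apart from their groups on the second principal component of all genes. On the first, which separated the groups, cold replicate 5 lay at 7.15 and the other cold libraries at 23.9 to 31.4. The controls lay at -30.6 to -17.6, so cold replicate 5 was the cold library nearest to them there. Control replicate 2 was the highest control for 22 of the 57 genes tested here and cold replicate 5 the highest cold library for 23, while cold replicate 4 was the lowest cold library for 24.

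Of the 65 genes, 57 had enough reads to be tested. Of these, 8 were higher and 21 lower in the cold at an adjusted p under 0.05, and 28 did not pass. The higher genes made up 14.0% of those tested and the lower genes 36.8%, where 10.2% of all genes tested rose and 9.14% fell. The median log2 fold change was -0.17, beside -0.02 over all genes tested. For 25 of the 57 genes every cold library lay on one side of every control, 6 above and 19 below, where this was so for 14% of all genes tested (7.39% above and 6.57% below). All 5 changes of at least 2-fold were falls, in Gstt2, Gpx3, Gstm2, Mgst3 and Gstt1, while the 8 rises lay between 0.31 (Sod2) and 0.60 (Msra) on the log2 scale. The authors' deposited table holds the same 57 genes and puts the same 29 past an adjusted p of 0.05 in the same directions. With 1 library left out, 5 to 8 genes rose and 18 to 23 fell; the number that rose was 5 when control replicate 4 or cold replicate 2 or 3 was the one omitted.

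**Figure D1:**
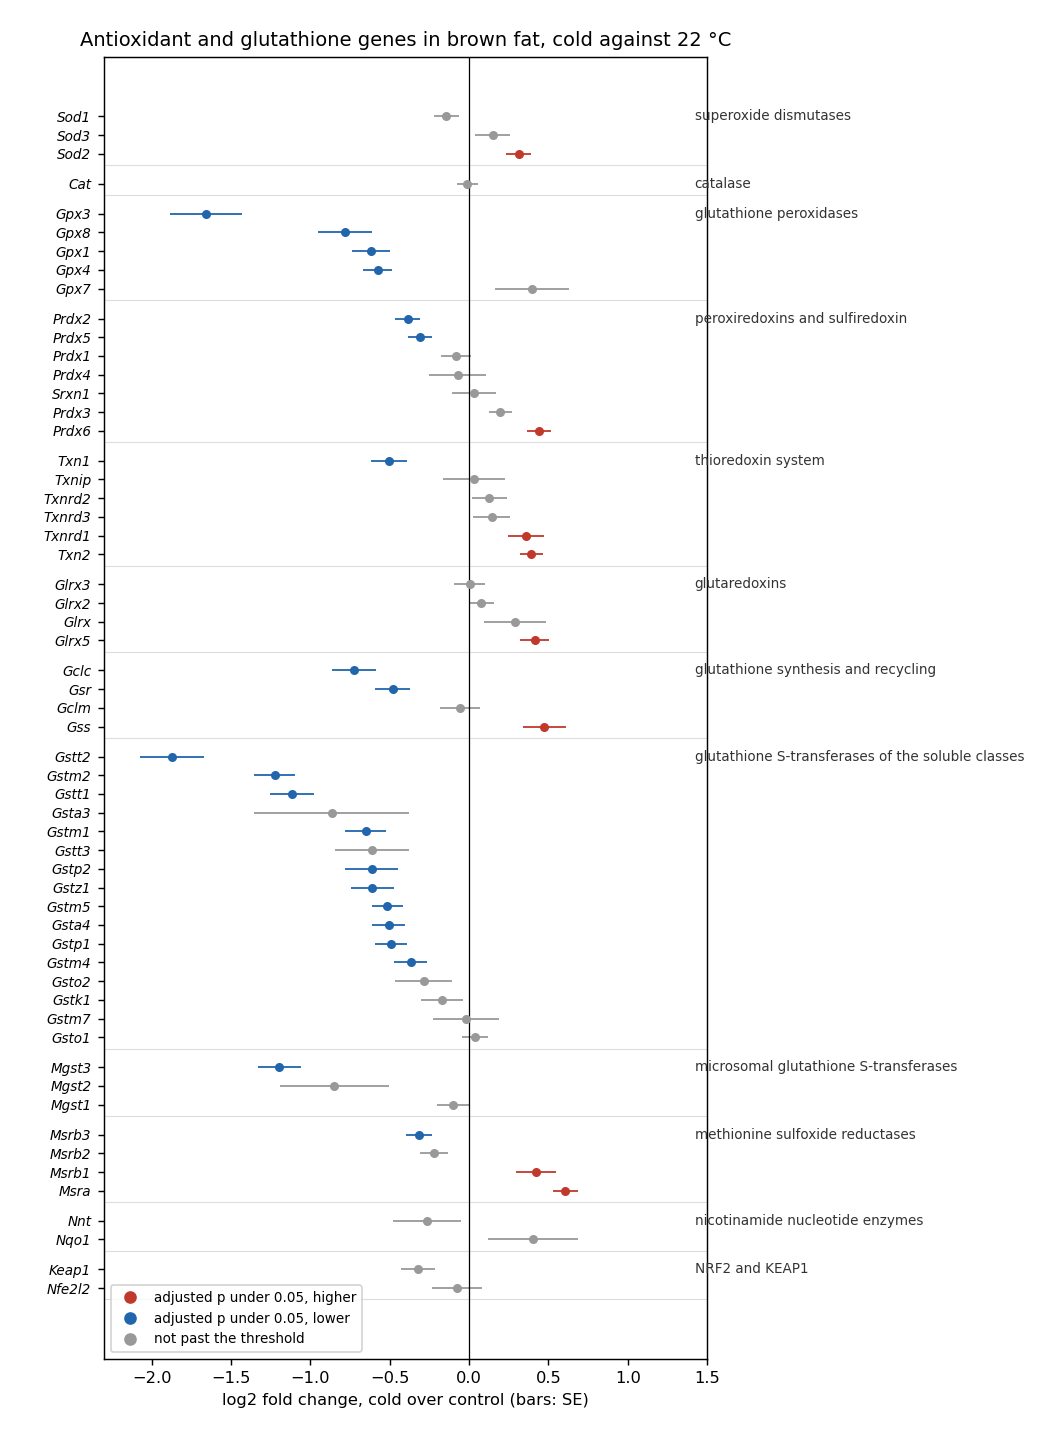
Log2 fold change of cold over control for the 57 genes tested, 1 point per gene with its SE as a bar, grouped by family; red and blue points passed an adjusted p of 0.05. All 11 transferases that passed lie left of 0, and the rises, at 0.31 to 0.60, are spread over 6 other families.

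Neither regulator passed the test. Nfe2l2 (chromosome 2, 75513576 to 75542698) held 102, 158, 106, 119 and 91.2 CPM at 22 °C and 98.4, 109, 94.5, 96.6 and 148 CPM at 4 °C (log2 fold change -0.08, SE 0.16, adjusted p = 0.758). The groups overlapped, with control replicate 2 and cold replicate 5 highest in their groups. Keap1, which encodes the adaptor that targets NRF2 for degradation, was at 109.9, 79.4, 89.8, 84.4 and 100.3 CPM at 22 °C and 69.9, 71.8, 69.4, 70.1 and 89.96 CPM at 4 °C (log2 fold change -0.32, SE 0.11, adjusted p = 0.0522). Cold replicate 5 lay in the control range and the other 4 cold libraries lay below all 5 controls. Keap1 was called lower without cold replicate 5 (-0.40, adjusted p = 0.0132) and without control replicate 2 (adjusted p = 0.0226), and also by DESeq2 and with 3 other choices of library scaling, so its side of the threshold depends on these choices. Nqo1, a quinone reductase and a widely used NRF2 target, was scarce at 2.26, 3.92, 1.84, 2.86 and 4.13 CPM at 22 °C and 6.01, 2.80, 4.13, 4.12 and 2.99 CPM at 4 °C, with overlapping groups (log2 fold change 0.40, SE 0.28, adjusted p = 0.343).

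The motif through which NRF2 binds with small MAF proteins, the antioxidant response element, was searched as TGACNNNGC on both strands of RefSeq promoters (GRCm38.p6, 250 bases before to 50 after each start). Its letters can overlap an AP-1 site, TGACTCA, as they do in Prdx1. A promoter was found for 57 of the 65 genes, and 11 of these (19.3%) held the motif, beside 14% of 27025 genes with a promoter in the same table. Among those with a promoter, 1 of 6 higher genes, 1 of 17 lower genes and 9 of 26 genes that did not pass held it. Nqo1, the NRF2 target named above, held no match in its promoter. Bases outside these windows were not searched, so a gene without a match here may still carry the element elsewhere. Gclc, Gsr, Gsta4, Gstt2, Msra, Nnt, Prdx6 and Sod3 had no promoter to search. The deepest fall (Gstt2) and the largest rise (Msra) are thus missing from this split. The windows below show the motif in capitals in the gene's own direction, on either strand, for both genes that passed the test and for 4 that did not. They are shown because they carry the element in 5 of the families and had different outcomes in the cold.
Txnrd1: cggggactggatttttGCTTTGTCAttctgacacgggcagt
Gstm5: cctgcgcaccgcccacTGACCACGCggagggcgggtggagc
Prdx1: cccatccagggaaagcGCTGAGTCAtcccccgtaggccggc
Gclm: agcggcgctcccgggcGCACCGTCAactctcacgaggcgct
Mgst1: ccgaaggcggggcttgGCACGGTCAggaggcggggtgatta
Gsta3: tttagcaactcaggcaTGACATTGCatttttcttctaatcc
The windows lie at chr10:82859098-82859138, chr3:107895796-107895836, chr4:116685450-116685490, chr3:122245407-122245447, chr6:138140455-138140495 and chr1:21240448-21240488, all on the plus strand. Txnrd1 was higher and Gstm5 lower in the cold. The other 4 did not pass the test. A match of these letters is a description of the window and says nothing of binding in this tissue.

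Among superoxide dismutases, the mitochondrial enzyme rose and the cytosolic and extracellular ones did not pass the test. Sod2 (chromosome 17, 13200705 to 13210985), the manganese enzyme of the mitochondrial matrix, rose from 1173 ± 94.6 to 1456 ± 64.2 CPM (log2 fold change 0.31, SE 0.08, adjusted p = 0.0127). It held 1297, 1069, 1096, 1169.9 and 1235 CPM at 22 °C and 1529, 1441, 1518, 1401 and 1393 CPM at 4 °C. Every cold library lay above every control. Sod1, the copper and zinc enzyme of the cytosol, held 428, 524, 475, 505 and 545 CPM at 22 °C and 458, 444, 468, 415 and 459.5 CPM at 4 °C (log2 fold change -0.14, SE 0.08, adjusted p = 0.224). The groups overlapped. Sod3, which is secreted, held 238, 165, 223, 233 and 235 CPM at 22 °C and 221, 224, 278, 235 and 254 CPM at 4 °C (log2 fold change 0.15, SE 0.11, adjusted p = 0.362), with control replicate 2 well below the other controls. Per counted kilobase, Sod1 at 765 ± 70.6 CPM per kb stood above Sod2 at 307 ± 24.8 and Sod3 at 107 ± 15.01 in control libraries. In the cold these levels were 693 ± 32.2, 381 ± 16.8 and 119 ± 11.6 CPM per kb. Of the 50-base windows of the Sod1 transcript, 23.1% also occur in Gm8566, so reads could be divided between them.

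Catalase, the hydrogen peroxide-splitting enzyme of peroxisomes, gave one of the smallest estimates. Cat (chromosome 2, 103294061 to 103325310) held 923, 1004, 957, 921 and 874 CPM at 22 °C and 949.9, 931, 954, 901 and 905 CPM at 4 °C. The groups overlapped over their whole range, and the log2 fold change of -0.01 had an SE of 0.07 (adjusted p = 0.919), the smallest SE among the genes that did not pass. Its sign changed with library totals left unscaled (0.02) and without control replicate 2 (0.01).

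Of the 8 glutathione peroxidases 5 were tested and 4 of these fell, led by Gpx3, the most abundant of all 65 genes per kilobase at 22 °C though not at 4 °C. None of the 5 rose by edgeR, DESeq2 or limma-voom, and 0 were higher at an unadjusted p under 0.05. Gpx3 (chromosome 11, 54716356 to 54723884), the secreted selenoenzyme of plasma, fell 3.16-fold from 1966 ± 711 to 623 ± 163 CPM (SD, n = 5). It held 1260.3, 3112, 1515, 2031 and 1909.7 CPM at 22 °C and 527, 514, 625, 545 and 904 CPM at 4 °C. The groups did not overlap, although both were widely spread, with control replicate 2 and cold replicate 5 the highest of each (log2 fold change -1.66, SE 0.23, adjusted p = 0.000364). Its value lay between -1.84 and -1.43 in the fits that left out 1 library. Per kilobase Gpx3 was at 1296 ± 469 CPM per kb in control, and at 411 ± 107 in the cold.

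Gpx1 and Gpx4 are selenoenzymes of the cell interior, and GPX4 is the one that reduces phospholipid hydroperoxides in membranes. Gpx1 (chromosome 9, 108241411 to 108242673) held 425, 653, 479, 577 and 546 CPM at 22 °C and 350.4, 314, 356, 311 and 414 CPM at 4 °C (log2 fold change -0.62, SE 0.12, adjusted p = 0.00325). Gpx4 (chromosome 10, 79516233 to 79519184) held 575, 566, 633, 681 and 668 CPM at 22 °C and 432, 381, 407, 383 and 494 CPM at 4 °C (log2 fold change -0.58, SE 0.09, adjusted p = 0.000998). In both genes every cold library lay below every control. Of the 50-base windows of Gpx4 transcripts, 61.7% also occur in its processed pseudogene Gpx4-ps2, so reads could be divided between them. Gpx8, a peroxidase of the endoplasmic reticulum without selenium, held 123.7, 209, 216, 264 and 211 CPM at 22 °C and 114, 117, 138, 93.7 and 132 CPM at 4 °C (log2 fold change -0.78, SE 0.17, adjusted p = 0.00616). Control replicate 1 lay within the cold range. Its gene lies inside Cdc20b on the opposite strand, which had no reads in any library. Gpx7, another peroxidase of that compartment, was at 7.29 ± 1.71 CPM at 22 °C and 9.55 ± 2.74 CPM at 4 °C (log2 fold change 0.40, SE 0.23, adjusted p = 0.255). Gpx2 had 0 counts in every library, which allows at most 0.428 to 0.689 CPM per library (3 counts, counting error only). Gpx5 and Gpx6 had 1 count each. The summed glutathione peroxidase reads were 3338 ± 812 CPM at 22 °C and 1519.8 ± 253 CPM at 4 °C. Gpx3 gave most of these reads at 22 °C but not at 4 °C.

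**Figure D2:**
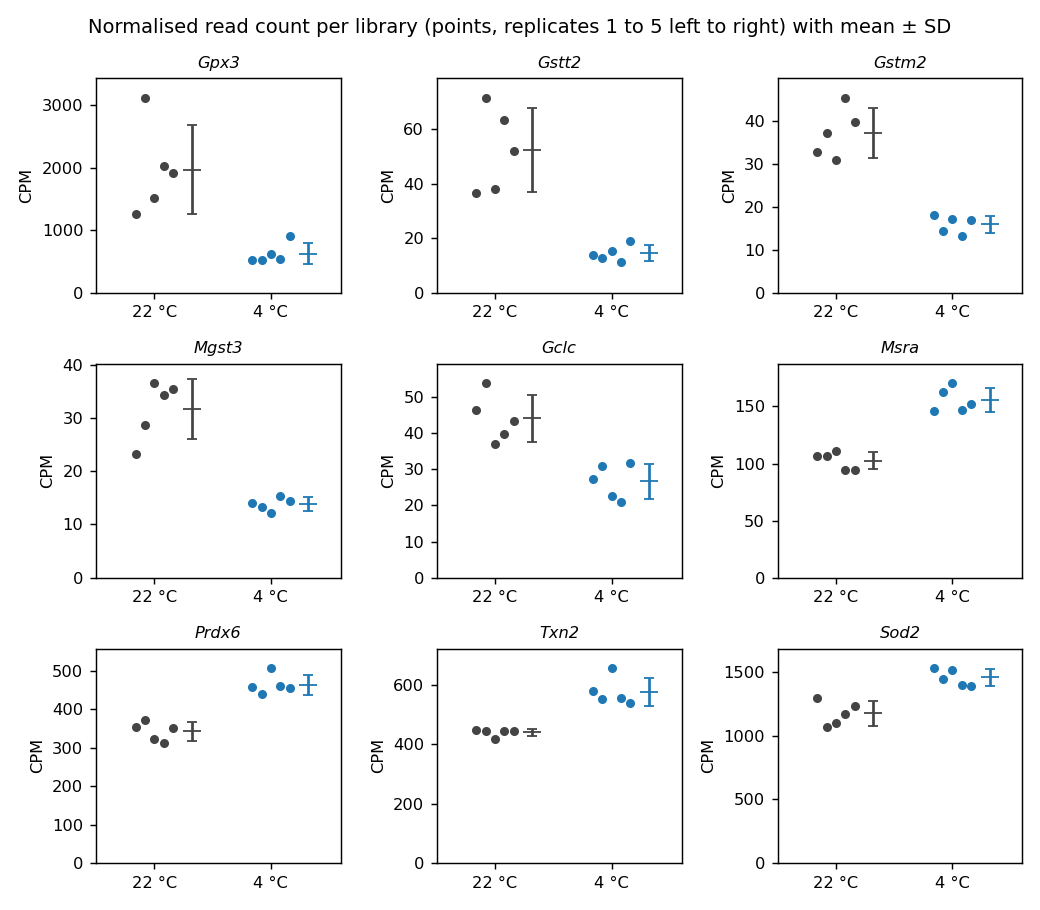
Normalised read count in CPM of 9 genes in each library, 5 at 22 °C and 5 at 4 °C, with the mean and SD of each group beside the points; each vertical axis starts at 0. In all 9 the groups do not overlap, and Gpx3 and Gstt2 are spread more widely among the controls than in the cold.

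Peroxiredoxins, abundant thiol peroxidases, moved in different directions. Of 6 peroxiredoxin genes 1 rose, 2 fell and 3 did not pass. Prdx6 (chromosome 1, 163170243 to 163181297), which uses glutathione and also acts on phospholipids, held 354, 373, 322, 313 and 352 CPM at 22 °C and 459, 439, 507, 460.3 and 455 CPM at 4 °C (log2 fold change 0.44, SE 0.07, adjusted p = 0.00160). All cold libraries lay above all controls. Prdx2, a cytosolic form, held 229.6, 237, 218, 235 and 224 CPM at 22 °C and 191, 171, 189, 155 and 167 CPM at 4 °C (log2 fold change -0.39, SE 0.08, adjusted p = 0.00367). Prdx5, found in mitochondria, peroxisomes and the cytosol, held 414, 487, 403, 491 and 437 CPM at 22 °C and 371, 339.8, 365, 352 and 375 CPM at 4 °C (log2 fold change -0.31, SE 0.08, adjusted p = 0.0147). In both genes all cold libraries lay below all controls. Prdx3 (chromosome 19, 60939969 to 60950441), the form of the mitochondrial matrix, held 910.3, 869, 774, 807 and 806 CPM at 22 °C and 978, 965, 999, 873 and 961 CPM at 4 °C, and a value of 0.20 (SE 0.07, adjusted p = 0.0754) left it short of the threshold. Control replicate 1 lay within the cold range, and without it Prdx3 was called higher (adjusted p = 0.0423), as it was by DESeq2 (adjusted p = 0.0246) and with unscaled library totals (adjusted p = 0.0379). Prdx1, the other main cytosolic form, was at -0.08 (SE 0.09) and Prdx4, of the endoplasmic reticulum, at -0.07 (SE 0.18). Of the 50-base windows of Prdx1, 10.9% occur in transcripts of other genes. Srxn1, sulfiredoxin, which repairs over-oxidised peroxiredoxins, was at 0.03 (SE 0.14). The summed peroxiredoxin reads were 2354 ± 122 CPM at 22 °C and 2429.9 ± 121 CPM at 4 °C.

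The cytosolic and the mitochondrial thioredoxin moved apart. Txn2 (chromosome 15, 77745481 to 77759424), the mitochondrial thioredoxin that supplies PRDX3, held 449, 445, 417, 446 and 443 CPM at 22 °C and 580.3, 554, 657, 555 and 540.0 CPM at 4 °C (log2 fold change 0.39, SE 0.07, adjusted p = 0.00277). Every cold library lay above every control. Txn1 (chromosome 4, 57956245 to 57969283), the cytosolic form, held 97.3, 152, 119, 123.5 and 118 CPM at 22 °C and 85.2, 85.8, 94.6, 73.9 and 90.9 CPM at 4 °C (log2 fold change -0.50, SE 0.11, adjusted p = 0.00767). Here every cold library lay below every control. Per kilobase Txn2 was at 343 ± 10.04 CPM per kb and Txn1 at 116 ± 18.8 in control, and at 450.3 ± 36.5 and 81.9 ± 7.46 in the cold.

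The reductases that recharge thioredoxins are selenoenzymes. Txnrd1, the cytosolic one, held 145, 94.9, 98.6, 95.00 and 116 CPM at 22 °C and 131, 142, 138, 141 and 151 CPM at 4 °C (log2 fold change 0.36, SE 0.11, adjusted p = 0.0440). Control replicate 1 lay among the cold libraries. The gene model overlaps Eid3, which was nearly absent, on the same strand. With each library omitted in turn, the call held in 1 of 10 fits, without control replicate 1 (0.47, adjusted p = 0.0027), and was lost in the other 9, with an adjusted p of up to 0.104. Txnrd2, the mitochondrial reductase, held 93.4, 62.96, 86.2, 77.99 and 90.4 CPM at 22 °C and 76.9, 84.98, 89.8, 97.2 and 99.9 CPM at 4 °C (log2 fold change 0.13, SE 0.11, adjusted p = 0.457). Txnrd3 was at 0.14 (SE 0.12). Txnip, which encodes the thioredoxin-binding protein that also restrains glucose uptake, held 597, 916, 857, 484 and 762 CPM at 22 °C and 1009.5, 681, 590.0, 871 and 541 CPM at 4 °C. Both groups were widely spread and overlapped (log2 fold change 0.03, SE 0.20, adjusted p = 0.929).

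One glutaredoxin of 4 passed the test. Glrx5 (chromosome 12, 106270899 to 106279120), which acts in iron-sulfur cluster assembly in mitochondria, held 137, 173, 157, 179.6 and 179 CPM at 22 °C and 217, 211, 238, 232 and 201 CPM at 4 °C (log2 fold change 0.41, SE 0.09, adjusted p = 0.00661). All cold libraries lay above all controls. Glrx2, also mitochondrial, was at 0.08 (SE 0.08) and Glrx3, a cytosolic iron-handling form, at 0.00 (SE 0.10). Of the 50-base windows of Glrx3, 20.4% also occur in Gm12669. Glrx, the classical cytosolic enzyme that removes glutathione from proteins, was at 0.29 (SE 0.20, adjusted p = 0.330), and omitting control replicate 2 made it pass (0.49, adjusted p = 0.0458).

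The enzymes that make glutathione moved in opposite directions along the pathway. Gclc (chromosome 9, 77602342 to 77642296), the catalytic subunit of glutamate-cysteine ligase, which catalyses the rate-limiting step, held 46.4, 53.7, 36.99, 39.8 and 43.1 CPM at 22 °C and 27.3, 30.9, 22.5, 20.9 and 31.6 CPM at 4 °C (log2 fold change -0.73, SE 0.14, adjusted p = 0.00324). Every cold library lay below every control. Gclm, the modifier subunit of the same ligase, held 57.01, 40.4, 35.8, 45.6 and 52.2 CPM at 22 °C and 42.6, 46.9, 42.8, 38.8 and 51.4 CPM at 4 °C, with overlapping groups (log2 fold change -0.06, SE 0.13, adjusted p = 0.793). Gss (chromosome 2, 155388917 to 155418546), glutathione synthetase, which completes the tripeptide, held 42.1, 41.4, 25.5, 28.5 and 35.9 CPM at 22 °C and 48.3, 49.4, 49.5, 42.7 and 51.1 CPM at 4 °C (log2 fold change 0.47, SE 0.13, adjusted p = 0.0252). All cold libraries lay above all controls, though the call was lost without control replicate 4, cold replicate 2 or cold replicate 3, with an adjusted p of up to 0.0655. Gsr, glutathione reductase, which regenerates reduced glutathione with NADPH, held 39.1, 49.4, 34.7, 39.4 and 45.4 CPM at 22 °C and 29.5, 28.9, 29.1, 27.4 and 34.4 CPM at 4 °C (log2 fold change -0.48, SE 0.11, adjusted p = 0.00894). Every cold library lay below every control.

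Most tested glutathione S-transferases fell. Of 24 genes, counting the microsomal forms, 19 were tested, 11 fell, 0 rose and 8 did not pass, with a median log2 fold change of -0.61. DESeq2 and limma-voom also called 0 higher, and 0 were higher at an unadjusted p under 0.05. The fallers came from 5 soluble classes (alpha, mu, pi, theta and zeta) and from the microsomal forms. Summed transferase reads were 1891 ± 212 CPM at 22 °C and 1479 ± 111 CPM at 4 °C, and nearly all of the microsomal share came from Mgst1, which did not pass. Among the 41 other genes, 38 were tested, 8 rose and 10 fell, with a median of -0.004.

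Mu-class genes lie side by side on chromosome 3 (107698772 to 107847777, mouse build mm9), in the order Gstm5, Gstm7, Gstm6, Gstm3, Gstm2, Gstm1 and Gstm4. Of the 5 tested, 4 fell, by amounts that differed between neighbours. Gstm2 held 32.8, 37.1, 30.8, 45.3 and 39.6 CPM at 22 °C and 18.03, 14.4, 17.1, 13.2 and 16.8 CPM at 4 °C, a 2.34-fold fall (log2 fold change -1.23, SE 0.13, adjusted p = 5.81e-05). Next to it, Gstm1 held 108, 125, 109, 117 and 107 CPM at 22 °C and 70.1, 68.05, 57.3, 65.01 and 100.3 CPM at 4 °C (log2 fold change -0.65, SE 0.13, adjusted p = 0.00408). Both had no overlap between the groups, though cold replicate 5 lay well above the other 4 cold libraries in Gstm1. Gstm5, best known from brain and testis, held 35.97, 30.6, 30.8, 36.7 and 29.3 CPM at 22 °C and 21.98, 21.1, 24.4, 22.99 and 23.9 CPM at 4 °C (log2 fold change -0.51, SE 0.10, adjusted p = 0.00324). Gstm4 held 31.7, 28.2, 39.5, 34.7 and 37.2 CPM at 22 °C and 25.4, 26.1, 27.8, 25.7 and 27.7 CPM at 4 °C (log2 fold change -0.37, SE 0.10, adjusted p = 0.0243). In these genes too every cold library lay below every control. The call of Gstm4 was lost in 6 of 10 fits on 9 libraries (control replicate 3, 4 or 5, cold replicate 1, 2 or 4), with an adjusted p of up to 0.0597. Gstm7, between them on the chromosome, was at -0.02 (SE 0.21), with control replicate 2 at 17.1 CPM against 9.49 to 10.2 in the other controls. Gstm6 and Gstm3 had 85 and 29 counts over all 10 libraries and were not tested. Of 50-base windows, 23.1% in Gstm1 and 9.36% in Gstm2 occur in another gene or pseudogene, and none in Gstm4, Gstm5 or Gstm7.

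Theta-class genes form a second cluster, on chromosome 10 (75236867 to 75297626, mm9), and held the deepest fall. Gstt2 held 36.6, 71.4, 37.9, 63.3 and 52.01 CPM at 22 °C and 13.9, 12.6, 15.2, 11.3 and 18.9 CPM at 4 °C, a 3.65-fold fall (log2 fold change -1.87, SE 0.20, adjusted p = 6.18e-05). Gstt1, which also metabolises small halogenated compounds, held 17.6, 23.7, 18.2, 24.1 and 20.02 CPM at 22 °C and 9.79, 9.32, 10.1, 11.1 and 7.48 CPM at 4 °C (log2 fold change -1.11, SE 0.14, adjusted p = 0.000172). The groups were apart in both genes. Gstt3 was at -0.61 (SE 0.23, adjusted p = 0.0819), with 11.6 CPM in control replicate 2 and 5.99 to 7.58 CPM in the other controls, and 26% of its 50-base windows occur elsewhere in the transcripts. Gstt4 had 37 counts in all and was not tested. Its mean, at the level of a few counts per library, was 0.297 ± 0.187 CPM at 22 °C and 0.974 ± 0.248 CPM at 4 °C.

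The remaining soluble classes were represented by 1 or a few expressed genes each. Gsta4 (chromosome 9, 78039773 to 78057156), the alpha-class enzyme with high activity towards the lipid peroxidation product 4-hydroxynonenal, held 95.9, 75.9, 78.6, 97.5 and 101 CPM at 22 °C and 65.4, 64.3, 59.00, 56.4 and 71.1 CPM at 4 °C (log2 fold change -0.51, SE 0.10, adjusted p = 0.00447). Every cold library lay below every control. Gsta3 was at 8.77 ± 5.001 CPM at 22 °C and 4.76 ± 3.35 CPM at 4 °C with wide spread (log2 fold change -0.87, SE 0.49, adjusted p = 0.230), and Gsta1 and Gsta2 had 0 counts in every library. Gstp1, the pi-class enzyme, held 73.97, 57.7, 68.2, 82.9 and 75.5 CPM at 22 °C and 50.5, 57.3, 45.9, 50.3 and 50.7 CPM at 4 °C (log2 fold change -0.49, SE 0.10, adjusted p = 0.00519). Its neighbour Gstp2 held 16.5, 10.98, 11.7, 11.5 and 15.1 CPM at 22 °C and 8.07, 7.77, 7.55, 8.24 and 11.4 CPM at 4 °C (log2 fold change -0.61, SE 0.17, adjusted p = 0.0216). The groups were apart in Gstp1 and overlapped in Gstp2, whose call was lost in 5 of 10 fits on 9 libraries (control replicate 5, cold replicate 1, 2, 3 or 4; adjusted p up to 0.0598). These 2 genes share 62.3% of the 50-base windows of Gstp1 and 64.3% of those of Gstp2, so their reads may be divided between them.

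Gstz1, the zeta-class enzyme, is the maleylacetoacetate isomerase of tyrosine breakdown. Its model overlaps Pomt2 by 738 bases on the opposite strand. It held 357, 608, 384, 399 and 465 CPM at 22 °C and 273, 282, 322, 256 and 318 CPM at 4 °C (log2 fold change -0.61, SE 0.13, adjusted p = 0.00741). The groups did not overlap, and control replicate 2 was the highest control. It is the most abundant soluble transferase per kilobase, at 271 ± 61.6 CPM per kb in control and 178 ± 17.7 in the cold. Gsto1, an omega-class enzyme that reduces dehydroascorbate, was at 0.04 (SE 0.08), Gsto2 at -0.29 (SE 0.18) and Gstk1, the kappa-class enzyme of mitochondria and peroxisomes, at -0.17 (SE 0.13). None of the 3 passed the test.

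Microsomal transferases are membrane proteins unrelated in sequence to the soluble ones. Mgst3, of this family, held 23.3, 28.6, 36.5, 34.4 and 35.5 CPM at 22 °C and 14.1, 13.2, 12.1, 15.4 and 14.4 CPM at 4 °C, a 2.29-fold fall with no overlap between the groups (log2 fold change -1.20, SE 0.14, adjusted p = 8.26e-05). Mgst1, which protects membranes of the reticulum and mitochondria from lipid peroxides, was the most abundant transferase at 756 ± 84.96 CPM per kb in control, with 707 ± 89.8 in the cold. It was at -0.10 on the log2 scale (SE 0.11, adjusted p = 0.547). Mgst2, which can make leukotriene C4, was at 6.23 ± 1.76 CPM at 22 °C and 3.47 ± 2.05 CPM at 4 °C (log2 fold change -0.85, SE 0.34, adjusted p = 0.102), and omitting cold replicate 1 made it pass (-1.21, adjusted p = 0.0214).

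**Figure D3:**
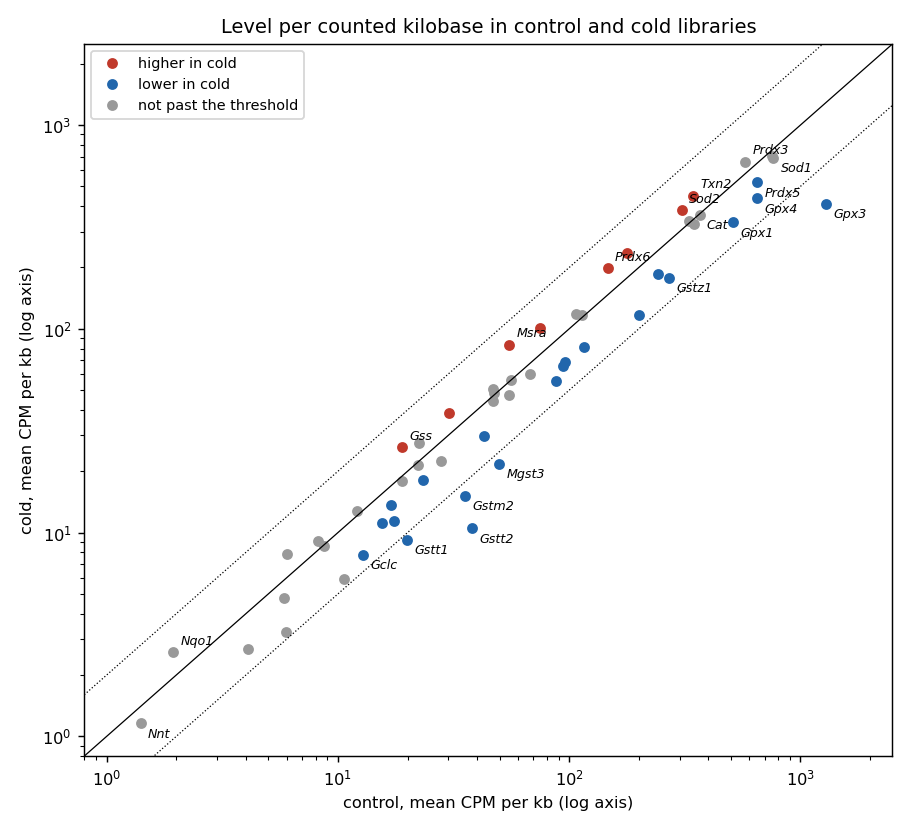
Mean level of the 57 tested genes in CPM per counted kilobase, control on the horizontal and cold on the vertical axis, both logarithmic; the solid line marks equal levels and the dotted lines 2-fold differences. Gpx3, Gstt2, Gstm2, Mgst3 and Gstt1 lie beyond the lower dotted line, and no gene lies beyond the upper one.

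Methionine sulfoxide reductases, which repair oxidised methionine in proteins, differed by form. Msra (chromosome 14, 64741458 to 65074740), specific for one stereoisomer of the sulfoxide, had the largest rise of all 57 genes. It held 106, 107, 111, 94.5 and 94.3 CPM at 22 °C and 146, 163, 170.4, 147 and 152 CPM at 4 °C, a 1.52-fold rise with every cold library above every control (log2 fold change 0.60, SE 0.08, adjusted p = 0.000239). Msrb1, a selenoprotein that acts on the other stereoisomer, held 51.8, 72.96, 61.1, 68.6 and 78.02 CPM at 22 °C and 90.5, 91.04, 109, 82.3 and 72.01 CPM at 4 °C (log2 fold change 0.42, SE 0.13, adjusted p = 0.0350). Cold replicate 5 lay within the control range, and the call was lost in 7 of 10 fits on 9 libraries (control replicate 1, 3 or 4, cold replicate 1, 2, 3 or 4; adjusted p up to 0.0954). Msrb3, of the endoplasmic reticulum and mitochondria, held 60.4, 67.5, 64.8, 63.3 and 58.4 CPM at 22 °C and 51.5, 48.01, 51.3, 45.03 and 56.9 CPM at 4 °C (log2 fold change -0.32, SE 0.08, adjusted p = 0.0185). Its cold libraries lay below all controls, and its call was lost without cold replicate 2 or 4 (adjusted p up to 0.0526). Msrb2, a mitochondrial form, was at -0.22 (SE 0.09, adjusted p = 0.0934), and omitting cold replicate 5 made it pass (-0.27, adjusted p = 0.0409).

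Nnt, the nicotinamide nucleotide transhydrogenase of the mitochondrial inner membrane, makes NADPH from NADH. It had the lowest level per kilobase of the 57 tested members of the group, at 1.403 ± 0.399 CPM per kb in control and 1.16 ± 0.184 in the cold. The libraries held 6.11, 5.30, 7.12, 4.55 and 9.29 CPM in control and 4.81, 6.52, 4.85, 4.60 and 5.99 CPM in the cold, with overlapping groups (log2 fold change -0.27, SE 0.21, adjusted p = 0.412). Some C57BL/6J colonies carry a deletion within this gene; whether these mice do was not tested, since the table gives no counts per exon.

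Grouped by place in the cell, the 7 genes whose proteins work in or at the mitochondrial matrix (Sod2, Prdx3, Txn2, Txnrd2, Glrx2, Glrx5 and Nnt) had 3 rises, 0 falls and a median log2 fold change of 0.20. That count leaves out other genes whose proteins are also found in mitochondria. Of those placed there above, Prdx5 (-0.31) and Msrb3 (-0.32) fell, and Msrb2 (-0.22), Gstk1 (-0.17) and Mgst1 (-0.10) did not pass. Other members were not sorted by whether they have a mitochondrial form, so the count depends on which genes are placed here. Among the 7, DESeq2 and limma-voom also called 0 falls, and 0 were lower at an unadjusted p under 0.05. The 7 were picked with their fold changes known, so these counts are no separate test. Of all genes tested, 10.2% rose and 9.14% fell. The summed reads of the 7 were 2743 ± 134 CPM at 22 °C and 3349 ± 141 CPM at 4 °C, of which Sod2, Prdx3 and Txn2 made up most. Of 8 genes for selenoproteins 7 were tested, and these split into 2 rises (Txnrd1 and Msrb1), 3 falls (Gpx1, Gpx3 and Gpx4) and 2 that did not pass (Txnrd2 and Txnrd3). All 3 peroxidase falls had no overlap between groups, and both rises did overlap. These groupings were made with the fold changes known and carry no test.

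**Figure D4:**
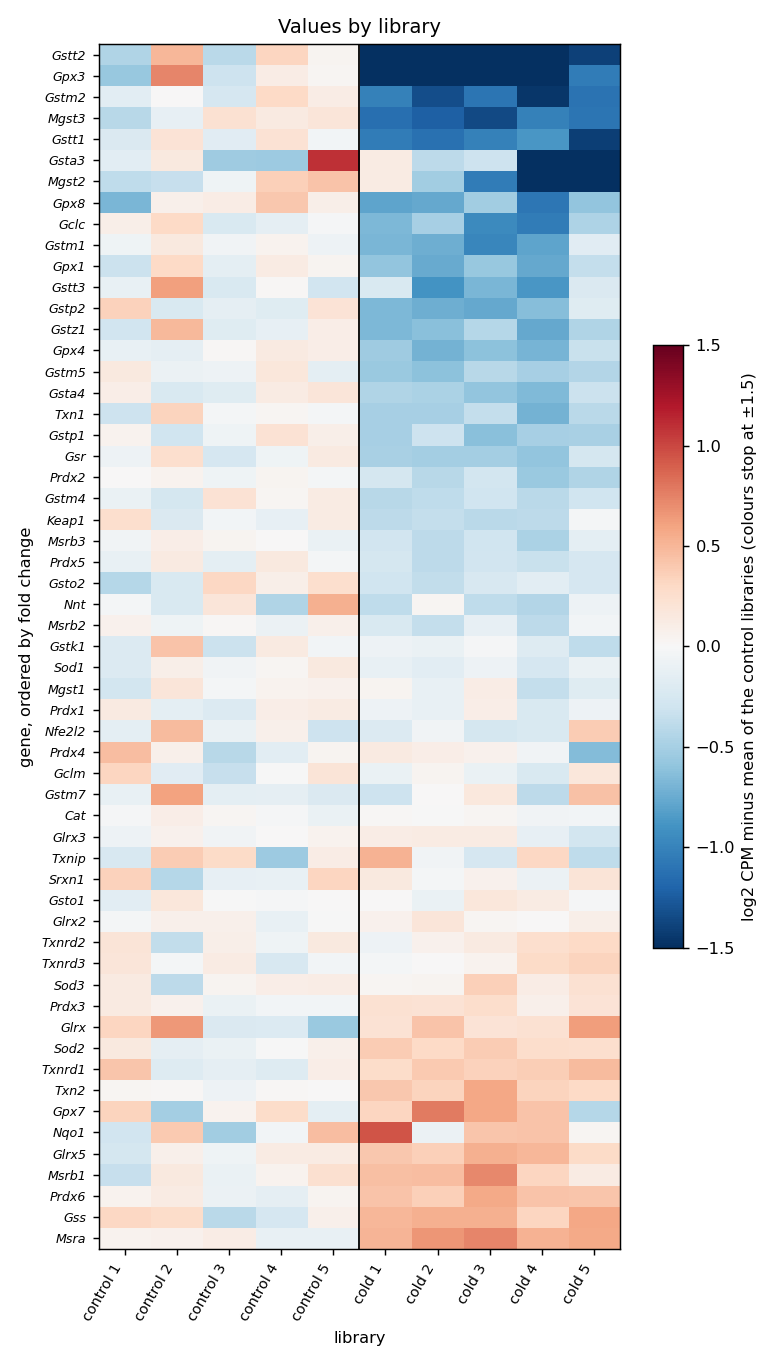
Log2 CPM of each of the 57 tested genes in each library minus the mean of the 5 control libraries, genes ordered by fold change from the deepest fall (Gstt2) to the largest rise (Msra); blue is lower and red higher, and colours stop at 1.5 either way. The block of blue at the upper right is shared by all 5 cold libraries, apart from Gsta3 and Mgst2, which are above the control mean in cold replicate 1.

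Genes around these pathways were taken from 5 lists. Of 26 tested partners and targets of NRF2, 3 rose and 6 fell (median -0.07). Ftl1, the ferritin light chain, a gene with processed copies that could share its reads, rose by 0.82 on the log2 scale (SE 0.10) and Osgin1, a growth inhibitor induced by oxidative stress, by 1.53 (SE 0.45). Blvrb, a biliverdin and flavin reductase, fell by 1.40 (SE 0.09) and Ugt1a6a, a glucuronosyltransferase that shares exons with its neighbours, by 1.56 (SE 0.35). Hmox1, heme oxygenase, chosen after its values were seen, rose by 1.21 (adjusted p = 0.00661), from 15.1 ± 5.60 to 34.7 ± 13.2 CPM, with no overlap between the groups. The small MAF partner Mafg, the NRF2 competitor Bach1 and the cystine importer Slc7a11, also chosen after their values were seen, were at -0.09, -0.09 and -0.05 and did not pass.

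Of 38 tested genes of glutathione transport, breakdown and precursor supply, 4 rose and 3 fell (median -0.11). Slc25a39, the carrier that brings glutathione into mitochondria, rose from 353 ± 25.4 to 674 ± 61.3 CPM (log2 fold change 0.93, SE 0.08, adjusted p = 1.80e-05), with every cold library above every control. Slc3a2, the heavy chain of the cystine importer and of other amino acid carriers, rose by 0.82 (SE 0.23). Slc1a5, a glutamine carrier, fell by 0.68 (SE 0.10). In NADPH supply 0 of 22 rose by edgeR, DESeq2 or limma-voom, 0 were higher at an unadjusted p under 0.05, and 2 fell (median -0.15), Idh2, the mitochondrial NADP-dependent isocitrate dehydrogenase, by 0.45 and Shmt1, a serine hydroxymethyltransferase, by 0.54; 4 fell without control replicate 2 and 1 without cold replicate 2 or 3.

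Of 50 other redox proteins and selenoproteins tested, 5 rose and 6 fell (median -0.13); only 3 rose when control replicate 3 or any cold replicate but 5 was omitted. Tmx4, a thioredoxin-like protein of the reticulum membrane, rose by 0.63 and Sepn1, a selenoprotein of the reticulum, by 0.77, while Sqrdl, the mitochondrial sulfide oxidase, fell by 0.75. Of 19 tested enzymes that make superoxide or peroxide, 1 rose and 4 fell (median -0.05); 2 rose without control replicate 2 and 3 without cold replicate 5. The amine oxidases Maob and Paox fell by 0.75 and 0.52 and the aldehyde oxidase Aox1, which is also on the NRF2 list, by 0.77. Across the 5 lists 34.6%, 18.4%, 9.09%, 22% and 26.3% of tested genes passed in either direction, beside 19.3% of all genes tested and 50.9% of the antioxidant and glutathione genes.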

How the data were processed

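Poly-A selected RNA of brown adipose tissue from 10 mice was sequenced as 1 library each. Per the submitters' processing notes, reads were processed with STAR and edgeR on the mouse build mm9; versions, read length, strand setting, read counter and gene annotation were not given in the labels or notes used here. The authors deposited raw read counts per gene, which were tested here, and a table of their own log2 fold changes and adjusted p-values, used beside these results. Columns were matched to mice by group and replicate number in the labels. Library totals of 4446163 to 6923932 counts limit the precision of low genes.

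From the counts, edgeR 4.0.16 (R 4.3.3) filtered low genes (filterByExpr), scaled libraries by TMM and ran the quasi-likelihood test of cold against control on all 11229 genes left, with Benjamini-Hochberg adjustment and a threshold of 0.05. It was also run on simulated data as a check of the code, and no call here rests on that run. CPM per kb divides by the counted length in the deposited file. Coordinates are mm9 from that file. Promoters are from RefSeq, GRCm38.p6, and shared 50-base windows are exact matches among GENCODE M21 transcripts. P-values set the difference between the groups against the spread between mice, 5 per group, with each gene's spread estimated in part from other genes. Alternatives were other scalings and filters, DESeq2 1.42.0, limma-voom (limma 3.58.1), a replicate block and each library left out. Replicate numbers did not pair the mice.

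The genes named in full are a fixed panel of core antioxidant genes and all members past the threshold; up to 4 genes per pathway list were named by smallest p and largest change. The members and lists were chosen with earlier results of these data known.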

Additional observations from a re-analysis of the deposited data

Results flagged for a closer look

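Among 114 groups of 5 libraries (57 genes in 2 groups), 8 held 1 library far from the other 4, where chance gives about 1 in 20 groups. Cold replicate 5 was that library in 4 of them and control replicate 2 in 3.

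In cold replicate 5, Gpx3 was at 904 CPM against 514 to 625 in its group and Gstp2 at 11.4 CPM against 7.55 to 8.24. Keap1 in that library was at 89.96 CPM against 69.4 to 71.8, and Nfe2l2 at 148 CPM against 94.5 to 109. In control replicate 2, Gstm7 was at 17.1 CPM against 9.49 to 10.2 in the other controls, Gstt3 at 11.6 CPM against 5.99 to 7.58 and Sod3 at 165 CPM against 223 to 238. Txn2 in control replicate 3 was at 417 CPM against 443 to 449.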

How the results depend on the processing

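Of the 29 genes that passed, 22 did so under all 20 alternatives, 23 in every fit without 1 library and 25 under the 10 others. With the replicate block, 6 members rose and 19 fell; Txnrd1, Msrb1, Msrb3 and Prdx5 lost their call. Same-numbered mice did not deviate together (correlations -0.25 to 0.18; 2 of 5 controls correlated best with their own number). Without control replicate 2 and cold replicate 5 together, 7 members rose and 23 fell.

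Signs changed only in genes that did not pass. Glrx3 turned to -0.00 with upper quartile scaling (-0.0034), the CPM filter (-0.0010), limma-voom (-0.0029) and the replicate block (-0.0040), to -9.8e-05 with no filter and to -0.013 without the 20 most abundant genes. Cat turned to 0.022 and Gstm7 to 0.0067 with no scaling factor. Without control replicate 2 and cold replicate 5, Cat was at 0.020, Gstm7 at 0.050, Prdx4 at 0.053 and Srxn1 at -0.10. With 1 library left out, ranges were -0.029 to 0.060 (Glrx3), -0.039 to 0.011 (Cat), -0.15 to 0.17 (Gstm7), -0.17 to 0.052 (Prdx4), -0.069 to 0.12 (Srxn1), -0.14 to 0.025 (Gclm), -0.0067 to 0.078 (Gsto1), -0.11 to 0.13 (Txnip) and -0.21 to 0.057 (Nfe2l2).

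Among the pathway lists, NRF2 genes higher were 6 with no scaling factor and 5 with DESeq2 (3 in the report). Glutathione transport genes lower were 5 with upper quartile scaling, 5 without the 20 most abundant genes and 6 with DESeq2 (3 in the report), and those higher were 7 without control replicate 2 and cold replicate 5 (4 in the report). NADPH genes lower were 1 with the replicate block and 4 without those 2 libraries, and other redox genes higher were 3 with the replicate block. Producers of superoxide or peroxide higher were 3 without those 2 libraries. With 1 library left out, members higher ranged from 5 to 8, NADPH genes lower from 1 to 4, other redox genes higher from 3 to 5 and superoxide or peroxide producers higher from 1 to 3. The cause of these shifts was not tested. The 28 members not called had an SE of 0.07 to 0.49; the part of depth in this was not tested.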
